A study of Mus musculus with 12 samples.

Results

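The genes described here encode the subunits of AMP-activated protein kinase (AMPK) and the kinases that switch it on. They were taken by name as 8 genes out of 19935 with a probe set of their own on the array: Prkaa1 and Prkaa2 (catalytic alpha subunits), Prkab1 and Prkab2 (scaffolding beta subunits), Prkag1 and Prkag2 (nucleotide-binding gamma subunits), Stk11 (the kinase LKB1) and Camkk2 (a calcium-dependent kinase). AMPK is a heterotrimer of 1 alpha, 1 beta and 1 gamma subunit that senses falling cellular energy through AMP and ADP bound to gamma. LKB1 or CaMKK2 activates it by phosphorylating the activation loop of alpha, and in liver the active kinase restrains fatty acid, cholesterol and glycogen synthesis and favours fat oxidation. Much of this control acts on protein phosphorylation, which arrays of transcripts do not measure.

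Transcripts were measured in whole livers of ovariectomized mice, 3 months of age and C57BL/6 by label, that were wild type, ERKO (lacking estrogen receptor alpha) or MOER (with the receptor at the membrane only, by label). After 1 week of recovery each mouse received intraperitoneal PPT, an agonist selective for estrogen receptor alpha, at 100 µg a day for 3 days, or 0.1 mL of oil. Each of the 12 Affymetrix Mouse Gene 1.0 ST arrays held pooled RNA of 3 animals, and each of the 6 groups had 2 arrays because the study was carried out a second time. The labels do not say whether the second run used separate animals, and p-values here therefore reflect the spread between arrays alone, which may be technical. They also do not say that replicate numbers mark the runs, and the main fit holds no term for run. The title asks whether estrogen lowers liver lipid through the membrane receptor, and the comparisons below ask how far AMPK transcripts followed PPT in each genotype.

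Values are deposited linear intensities, and differences are on the log2(intensity + 16) scale, which understates changes of dim genes. Errors of intensities are standard deviations (SD, n = 2) and errors of log2 differences are standard errors (SE) of a limma fit to all 12 arrays. A gene was called where its p-value, adjusted by the Benjamini-Hochberg method over 19119 probe sets, was under 0.05. Shares of all probe sets refer to such calls. Counts at an unadjusted p under 0.05, by limma or by a Cyber-T-style test, have no such share beside them. They cannot be set against the shares of calls. Array medians lay between 77.5 and 85.26. Esr1, the gene of the receptor, gave 356 ± 12.6 in wild type oil and 317 ± 11.6 in wild type PPT arrays, against 117 to 162 over the 8 ERKO and MOER arrays. The hepatocyte markers were bright in every group. Skeletal muscle markers summed to 10770 and 10775 in the ERKO PPT arrays, where 9 of 9 lay above the 40th percentile of their array, against 494 to 685 in the other 10 arrays, where 3 or 4 of 9 did. Pancreatic acinar markers summed to 35997 and 46055 in the MOER oil arrays, with 9 of 9 above that percentile, against 315 to 507 elsewhere, with 1 to 3 of 9. Endothelial markers summed to 3167 and 3243 in wild type PPT arrays against 4987 to 6469 elsewhere. Neutrophil markers summed to 189 and 221 in wild type oil, 782 and 900 in MOER oil and 1480 and 1939 in ERKO oil. After PPT their sums were 482 and 497 in wild type, 750 and 770 in MOER and 1072 and 1130 in ERKO. The paired arrays of a group correlated at 0.994 to 0.996 except in ERKO oil, where r was 0.981 across probe sets. In bulk tissue, fewer cells of a type and less RNA per cell cannot be told apart.

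Of the 8 genes, 7 were bright enough to test. Prkab2 lay between 41.1 and 57.3 on the 12 arrays, under the 40th percentile of its own array on each, and was not tested. Each gene had 1 probe set, and none of these probe sets named a further gene. A moderated F-test of equal means over the 6 groups called 6 of the 7, Camkk2 being the exception, where 49.2% of all probe sets tested were called. That share is high, so varying among the groups did not by itself set these genes apart.

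The promoter windows below are shown because Prkaa1, Prkaa2 and Prkag2 were the members called in more than 1 pairwise comparison, Prkaa1 and Prkag2 higher and Prkaa2 lower after PPT in wild type liver. Each line gives the 250 bases before an annotated RefSeq start in assembly GRCm38.p6, 5′ to 3′ in the gene's direction. Of 3 windows of Prkag2, the one holding TGACC is shown because it holds it. Capitals mark the letters TGACC, the reverse complement of GGTCA, which is the core repeated in an estrogen response element.
Prkaa1 (chr15:5143611-5143860, forward strand): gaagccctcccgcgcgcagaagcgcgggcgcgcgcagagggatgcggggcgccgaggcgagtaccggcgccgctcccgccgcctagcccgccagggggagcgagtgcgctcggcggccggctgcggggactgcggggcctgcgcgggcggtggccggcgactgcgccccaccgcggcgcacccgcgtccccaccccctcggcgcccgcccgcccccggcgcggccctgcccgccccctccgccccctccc
Prkaa2 (chr4:105109899-105110148, reverse strand): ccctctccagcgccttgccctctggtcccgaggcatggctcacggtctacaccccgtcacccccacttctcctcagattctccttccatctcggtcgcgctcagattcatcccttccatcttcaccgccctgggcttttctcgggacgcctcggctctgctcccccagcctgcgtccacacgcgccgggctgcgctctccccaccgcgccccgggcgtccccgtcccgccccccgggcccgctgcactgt
Prkag2 (chr5:24995754-24996003, reverse strand): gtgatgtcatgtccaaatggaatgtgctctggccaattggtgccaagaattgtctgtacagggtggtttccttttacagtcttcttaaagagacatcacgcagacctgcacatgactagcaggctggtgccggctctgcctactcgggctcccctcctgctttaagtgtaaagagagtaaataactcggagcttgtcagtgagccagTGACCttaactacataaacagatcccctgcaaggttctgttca

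RefSeq gave 10 windows for the 8 genes, 3 of them for Prkag2. Each window was searched on both strands over 300 bases, the printed part and 50 bases past the start. A full estrogen response element, GGTCA and TGACC with 3 bases between, was in none of the 10, and 0.07% of all 32851 windows held it. The GGTCA or TGACC core was in 1 window each of Prkab1, Prkag1 and Prkag2, and 40.5% of all windows held it. The cAMP response element TGACGTCA was in none of the 10, against 1.79% of all windows. Prkaa1 and Prkaa2 had GC-rich windows, with 82% GC and 52 CpG for Prkaa1 and 72.7% and 35 for Prkaa2, where the median window had 52.7% and 7. The Prkag2 window printed above had 50.3% GC and 6 CpG, while its other windows had 69.7% and 79.3% GC. These matches describe letters in a window and say nothing about binding.

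In wild type liver PPT moved the catalytic alpha subunits in opposite directions and raised a gamma subunit. Prkaa1 rose 1.57-fold, Prkag2 rose 1.43-fold, Prkaa2 fell 1.48-fold and Stk11, the upstream kinase, fell 1.39-fold. These were 4 of 7 genes called, where 31% of all probe sets were called, 14.8% higher and 16.2% lower. No gene of the set reached the 2-fold change that the labels name as the study's own threshold. The wild type PPT arrays were those with the low endothelial sum, and their hepatocyte markers summed to 63676 and 68266 against 65162 to 85195 elsewhere. Their adipocyte markers, of which Fabp4 lay above the 40th percentile, summed to 1050 and 1071 against 514 and 526 in wild type oil. The part of these markers in the responses was not tested.

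Prkaa1, the alpha1 subunit, gave 332 and 345 in wild type oil arrays and 542 and 538 in wild type PPT arrays. It gave 412 and 362 in ERKO oil, 322 and 347 in ERKO PPT, 307 and 274 in MOER oil, and 288 and 340 in MOER PPT. The wild type PPT arrays stood above all 10 others, whose highest value was 412. The next lower groups, ERKO oil and wild type oil, did not overlap each other, whereas wild type oil overlapped ERKO PPT, which overlapped MOER PPT. The wild type response was 0.65 ± 0.108 on the log2 scale (adjusted p = 0.000925 by limma). It was 0.11 ± 0.108 in MOER (adjusted p = 0.762) and -0.20 ± 0.108 in ERKO (adjusted p = 0.237), neither of which was called.

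Prkaa2, the alpha2 subunit, gave 546 and 528 in wild type oil arrays and 363 and 355 in wild type PPT arrays. Values fell from 497 and 450 under oil to 337 and 329 under PPT in ERKO livers. MOER livers gave 447 and 409 under oil and 303 and 350 under PPT. In each genotype both PPT arrays lay below both oil arrays, and the 6 PPT arrays (303 to 363) lay below the 6 oil arrays (409 to 546). The log2 response was -0.56 ± 0.098 in wild type (adjusted p = 0.00124) and -0.49 ± 0.098 in ERKO (adjusted p = 0.00775). In MOER it was -0.38, with a 95% interval of -0.594 to -0.160 before adjustment, and missed the threshold (adjusted p = 0.0594). Without the second ERKO PPT array the ERKO call was lost (adjusted p = 0.0637). Leaving out either ERKO oil array brought the MOER response past the threshold, though no ERKO array is in that comparison. The MOER estimate was unchanged, and calls over all probe sets rose in these fits as well.

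**Figure D1:**
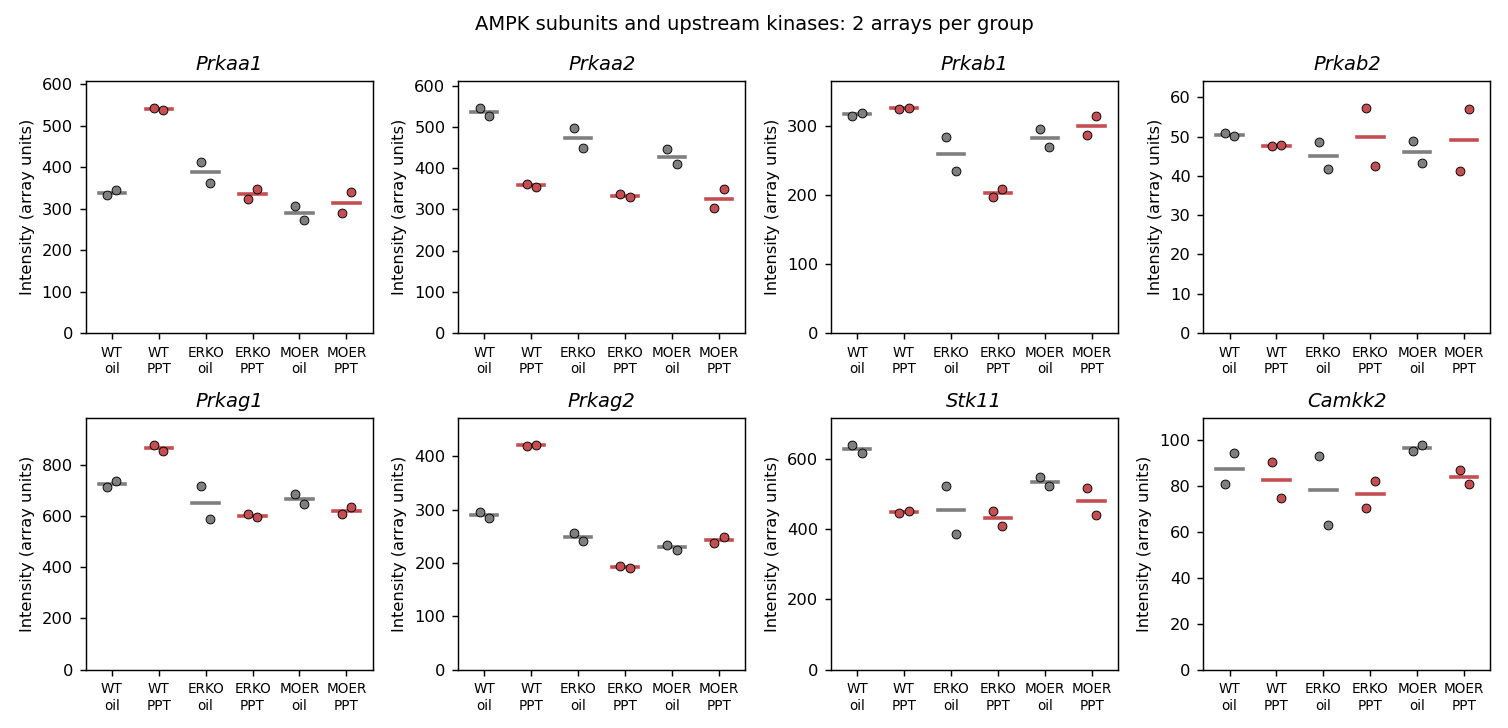
Deposited intensity (linear array units, axes from 0) of the 8 genes in the 6 groups; points are the 2 arrays of a group, lines their mean, grey for oil and red for PPT. Prkaa1 and Prkag2 are highest in the wild type PPT arrays (538 and 542, and 420 and 421), and Prkaa2 lies lower under PPT than under oil in every genotype.

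Prkag2, the gamma2 subunit, gave 296 and 284 in wild type oil arrays and 420 and 421 in wild type PPT arrays. In ERKO it gave 256 and 242 under oil and 194 and 191 under PPT. MOER arrays gave 234 and 224 under oil and 237 and 248 under PPT. Wild type PPT was the highest group and ERKO PPT the lowest, with no array of another group inside either range; MOER PPT and ERKO oil overlapped. The log2 response was 0.51 ± 0.0826 in wild type (adjusted p = 0.000725), 0.08 ± 0.0826 in MOER (adjusted p = 0.779) and -0.34 ± 0.0826 in ERKO (adjusted p = 0.0176). The ERKO call was lost without either ERKO PPT array, with adjusted p-values of 0.0738 without the first and 0.109 without the second.

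Prkag1, the more widely expressed gamma1 subunit, gave 713 and 737 in wild type oil arrays and 878 and 852 after PPT. The other 8 arrays lay between 589 and 715. Its wild type PPT arrays were thus the highest of the 12, yet the log2 response of 0.25 ± 0.101 missed the threshold (adjusted p = 0.0887). It passed without either ERKO oil array, in fits where its estimate was unchanged and calls over all probe sets rose. Responses were -0.10 in MOER (adjusted p = 0.768) and -0.11 in ERKO (adjusted p = 0.508).

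Prkab1, the beta1 subunit, gave 315 and 320 in wild type oil arrays and 325 and 326 after PPT. MOER arrays gave 296 and 269 under oil and 287 and 314 after PPT, and ERKO arrays 284 and 236 under oil and 197 and 209 after PPT. The ERKO PPT arrays were the lowest of the 12, and ERKO PPT and ERKO oil did not overlap. The ERKO response of -0.33 ± 0.104 missed the threshold (adjusted p = 0.0528). It passed without the second ERKO oil array but not without the first, and calls over all probe sets rose in both fits. Responses were 0.04 in wild type (adjusted p = 0.826) and 0.09 in MOER (adjusted p = 0.814).

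Stk11, which encodes LKB1, the main activating kinase of AMPK in liver, gave 640 and 617 in wild type oil arrays, the highest of the 12, and 446 and 451 after PPT. ERKO arrays gave 523 and 387 under oil and 451 and 409 after PPT. MOER arrays gave 547 and 521 under oil and 518 and 439 after PPT. The wild type response of -0.47 ± 0.135 was called (adjusted p = 0.0214) and was lost when any 1 of the 4 wild type arrays was left out, with adjusted p-values of 0.0719 to 0.106. Responses were -0.16 in MOER (adjusted p = 0.692) and -0.06 in ERKO (adjusted p = 0.793).

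Camkk2, the calcium-dependent activating kinase, was dim, with values of 63.0 to 97.8 over the 12 arrays. Its groups overlapped except for MOER oil, whose 94.9 and 97.8 lay above every other array. Its responses ranged from -0.17 to -0.01 and none was called. Prkag3, the third gamma subunit and largely confined to muscle, ranged from 51.1 to 102 with all neighbouring groups overlapping, and was not called in any response.

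**Figure D2:**
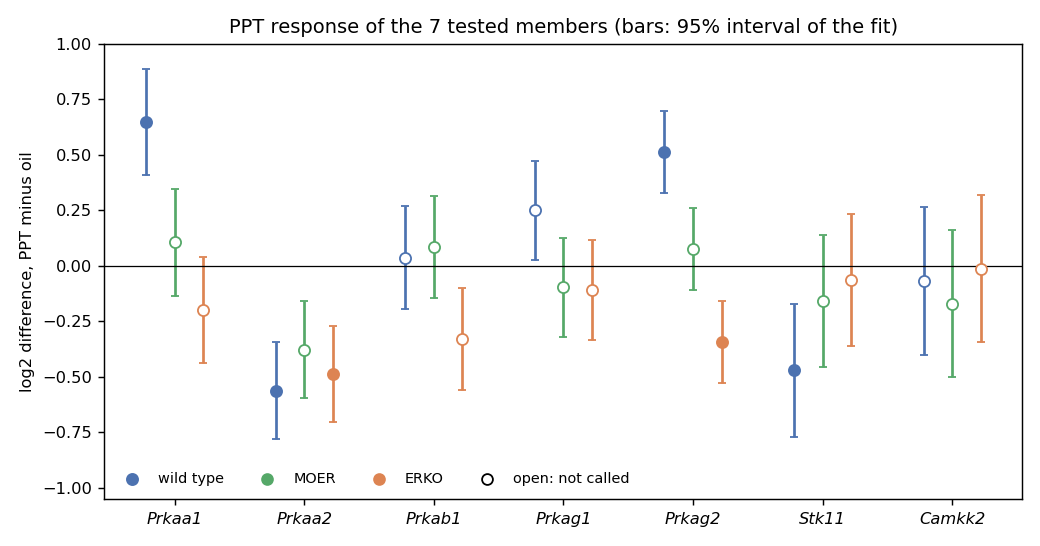
Response to PPT (log2 difference, PPT minus oil) of the 7 tested genes in wild type, MOER and ERKO livers; points are estimates of the limma fit, bars their 95% intervals before adjustment, filled points were called. Prkaa2 lies below 0 in each genotype, while Prkag2 lies at 0.51 for wild type, 0.08 for MOER and -0.34 for ERKO.

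In MOER livers 0 of the 7 genes were called by limma, where 4.66% of all probe sets were called. At an unadjusted p under 0.05 the count was 1, Prkaa2, by limma and 1 by a Cyber-T-style test. The MOER oil arrays in this comparison were those with pancreatic acinar markers, whose part in these values was not tested. In ERKO livers 2 of the 7 were called, Prkaa2 and Prkag2, both lower, where 17.9% of all probe sets were called and 8.46% were called lower. The ERKO count at an unadjusted p under 0.05 was 3 by limma and 1, Prkaa2, by the Cyber-T-style test. Prkag2 had a p of 0.0661 in the latter. Of all ERKO calls 52.8% were higher, and 40.4% when arrays were centred on their medians. When only the compared groups were fitted, 58.7% were higher, and the calls dropped from 3430 to 576 probe sets. The share higher rose without the first ERKO oil array and fell without the second, so the ERKO background is itself unstable. The ERKO PPT arrays were those with skeletal muscle markers. Their adipocyte markers summed to 1252 and 1278 against 290 and 370 in ERKO oil, with 3 against 1 of 4 above the 40th percentile. The part of these markers in the values was not tested.

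The responses themselves differed between genotypes for Prkaa1 and Prkag2. In wild type minus ERKO, 2 of 7 genes were called, where 22.3% of all probe sets were. The difference was 0.85 ± 0.153 for Prkaa1 (adjusted p = 0.00251) and 0.86 ± 0.117 for Prkag2 (adjusted p = 0.00043), and both calls held in all 23 alternative limma settings. In wild type minus MOER, 2 of 7 were called, where 21.6% of all probe sets were, again Prkaa1 (0.54 ± 0.153, adjusted p = 0.0276) and Prkag2 (0.44 ± 0.117, adjusted p = 0.0213). The Prkaa1 call was lost without any 1 wild type array, MOER oil array 1 or MOER PPT array 1 (adjusted p up to 0.11). The Prkag2 call was lost without any 1 wild type array, either MOER oil array or MOER PPT array 1 (adjusted p up to 0.0948). In MOER minus ERKO, 1 of 7 was called, where 11.5% of all probe sets were. It was Prkag2, at 0.42 ± 0.117 (adjusted p = 0.0434), and leaving out any 1 array other than the ERKO oil arrays ended the call (adjusted p up to 0.143). That call also ended with the replicate number as a block. The 3 differences share arrays pairwise, so they are not independent of each other. They rest on ERKO PPT arrays with skeletal muscle markers, MOER oil arrays with pancreatic acinar markers and wild type PPT arrays with low endothelial sums. Each alternative setting kept at least 1 array of each such group, and the part of these markers was not tested.

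For Prkaa2 no difference between responses was called. Wild type minus ERKO was -0.08 (95% interval -0.383 to 0.231, adjusted p = 0.762), wild type minus MOER -0.19 (-0.492 to 0.122, adjusted p = 0.425) and MOER minus ERKO 0.11 (-0.198 to 0.416, adjusted p = 0.676). These intervals leave room for differences about as large as the MOER response itself.

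The shift between the alpha subunits can be given for each PPT array as the log2 change of Prkaa1 minus that of Prkaa2, each against the mean of the genotype's oil arrays. It was 1.20 and 1.22 for wild type arrays, 0.47 and 0.50 for MOER arrays, and 0.22 and 0.35 for ERKO arrays. All 6 arrays thus shifted toward Prkaa1 relative to Prkaa2, and the wild type arrays farthest. Prkaa1 itself was called higher in wild type alone. In ERKO the mean change was -0.20 for Prkaa1 and -0.49 for Prkaa2, and in MOER 0.11 and -0.38. For the gamma subunits, Prkag2 minus Prkag1 gave a mean of 0.26 for wild type, 0.17 for MOER and -0.23 in ERKO. Prkag2 and Prkag1 varied together over the 12 arrays (Pearson's r = 0.93), as did Prkaa1 and Prkag2 (0.82), while Prkaa1 and Prkaa2 did not (-0.05). These values describe 12 arrays in 6 groups and were not tested.

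Under oil no gene of the set was called between genotypes. The oil groups differed in neutrophil and pancreatic acinar markers, whose part was not tested. In ERKO minus wild type 0 of 7 were called by limma, where 5.01% of all probe sets were. With an unadjusted p under 0.05 there were 3 by limma and 1 by a Cyber-T-style test. The most negative difference was that of Stk11, at -0.47 (adjusted p = 0.0763). Here the count rose without the first ERKO oil array and stayed at 0 without the second. Calls over all probe sets also rose without the first, so the rise was not particular to these genes. In MOER minus wild type 0 of 7 were called by limma, where 5.66% of all probe sets were. Unadjusted p-values under 0.05 numbered 2 by limma and 5 by the Cyber-T-style test. The share of all probe sets at that looser cutoff is not given, so 5 of 7 cannot be set against 5.66%. Prkag2 (-0.32, adjusted p = 0.0501) and Prkaa2 (-0.32, adjusted p = 0.086) came nearest. Both passed without either ERKO oil array, which is not in this comparison, and calls over all probe sets rose in those fits. In MOER minus ERKO 0 of 7 were called by limma, where 2.05% of all probe sets were. By limma 1 had an unadjusted p under 0.05, Prkaa1 (-0.40, adjusted p = 0.103). The Cyber-T-style test also gave 1 at an unadjusted p under 0.05. The limma count for MOER minus ERKO rose without either ERKO oil array, as did the calls over all probe sets.

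Among 13987 genes, those whose log2 values followed a member most closely over the 12 arrays were as follows. Nanp (r = 0.978), Sdad1 (0.967) and Stx12 (0.966) were nearest to Prkaa1, and Nanp, a sugar phosphatase, rose from a mean of 329.69 in wild type oil to 559 in wild type PPT. Rnpc3 (0.967), Zfand5 (0.964) and Nqo1 (0.963), the last an antioxidant quinone reductase, were nearest to Prkaa2. Nfkbia (0.985), the inhibitor of NF-kappaB, Sult3a2 (0.985), a sulfotransferase, and Pcsk6 (0.984), a protease, were nearest to Prkag2. The mean of Sult3a2 was 602 in wild type oil, 3620 in wild type PPT, 340 in ERKO oil and 51.8 in ERKO PPT. Prkag2 shows the same order of these groups over a narrower range. In MOER they moved apart: the mean of Sult3a2 went from 265 under oil to 224 under PPT, that of Prkag2 from 229 to 242. Slc25a11 (0.987), the mitochondrial oxoglutarate carrier, Ube3b (0.966) and Robo4 (0.959), an endothelial receptor, were nearest to Stk11. The points share arrays and groups, and no p-value is given.

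The other genes of the pathway were taken by name from lists of what acts on AMPK and what it acts on. Over all 13987 genes, 15.2% were called higher and 17.9% lower after PPT in wild type liver, with a median log2 difference of 0.0048. In MOER these were 2.52% and 2.40% with a median of 0.0022, and in ERKO 7.44% and 9.48% with a median of 0.0016.

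Factors upstream of AMPK, which include the LKB1 partners Strada, Stradb, Cab39 and Cab39l, were tested for 11 of 13. In wild type 1 rose and 2 fell, with a list median of -0.12. Adipor2, a receptor for the hormone adiponectin, fell from 3783 and 3837 to 2048 and 2047 (log2 difference -0.89 ± 0.0785, adjusted p = 9.2e-06), and kept between 3480 and 3985 on the 8 arrays of the other genotypes. Map3k7, the kinase TAK1, rose by 0.39 (adjusted p = 0.0148) and Lepr, the leptin receptor, fell by 0.43 (adjusted p = 0.0453). Both of these calls were lost without either second wild type array, up to adjusted p-values of 0.125 for Map3k7 and 0.261 for Lepr, and that of Lepr without 8 others too. None of the 4 LKB1 partners was called. In MOER and in ERKO 0 of 11 were called by limma, with 2 and 2 at an unadjusted p under 0.05. Some were called higher in MOER and in ERKO when an ERKO oil array was left out, where calls over all probe sets rose too. The Adipor2 response was lower in wild type than in MOER by 0.73 (adjusted p = 0.000775).

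Among the AMPK-related kinases that LKB1 also activates, 9 of 12 were tested, and in wild type 1 rose and 3 fell, with a list median of -0.12. Mark2, a kinase of microtubule-associated proteins, rose from 85.9 and 78.9 to 169 and 143 (0.81 ± 0.117, adjusted p = 0.000356). Snrk fell by 0.45 (adjusted p = 0.00137), Sik3, a salt-inducible kinase, by 0.50 (adjusted p = 0.00621) and Nuak2 by 0.39 (adjusted p = 0.0194). The Sik3 call was lost without wild type oil array 1 or wild type PPT array 2 (adjusted p = 0.0773 for the latter), and that of Nuak2 without any 1 wild type array (up to 0.122). In MOER and in ERKO 0 of 9 were called by limma, with 2 and 1 at an unadjusted p under 0.05. When an ERKO oil array was left out some were called in MOER and in ERKO, where calls over all probe sets rose too.

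**Figure D3:**
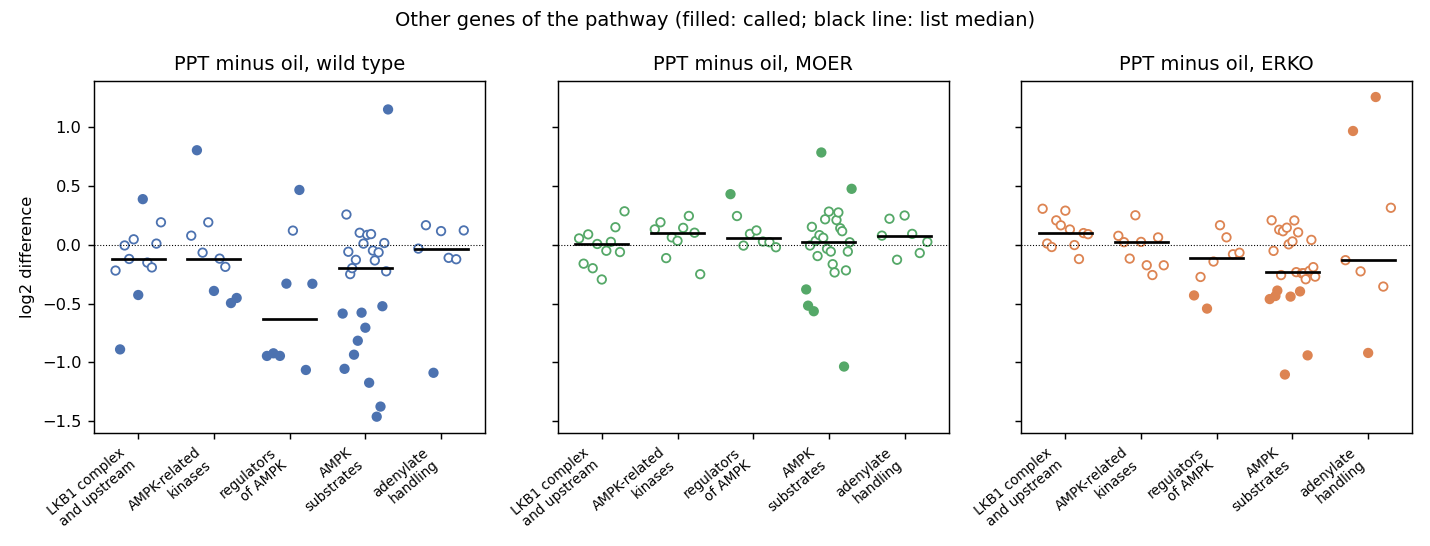
Response to PPT (log2 difference) of each tested gene in 5 lists of the AMPK pathway in wild type, MOER and ERKO livers; filled points were called and black lines are list medians. The regulators of AMPK have a median of -0.63 for wild type, 0.06 for MOER and -0.11 for ERKO livers.

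Regulators of AMPK activity, 8 of 10 tested, had the lowest median of the 5 lists in wild type liver, -0.63: 1 rose and 6 fell, where 17.9% of all genes were called lower. Folliculin and its partners restrain AMPK signalling, and sestrins promote it. Flcn (folliculin) fell from 347 and 346 to 167 and 177, Fnip1 from 953 and 1007 to 500 and 518, and Fnip2 from 145 and 156 to 67.1 and 74.2. Sesn1, a sestrin induced by stress, fell from 333 and 309 to 147 and 143. Their log2 differences were -0.95 ± 0.105, -0.92 ± 0.0923, -0.95 ± 0.108 and -1.07 ± 0.105, each with an adjusted p of 6.14e-05 or less. The gene that rose was Ppp2ca (0.47, adjusted p = 0.00413), a phosphatase catalytic subunit named after its value was seen. Without the second wild type oil array, 0 rose and 4 fell.

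MOER livers did not share that direction for folliculin. Flcn gave 249 and 234 under oil and 353 and 310 after PPT, a rise of 0.43 ± 0.105 (adjusted p = 0.0443) that was lost when any 1 array other than the ERKO oil arrays was left out (adjusted p up to 0.326). It was the 1 regulator called in MOER, and the list median was 0.06. The responses in wild type were lower than in MOER by 1.38 for Flcn (adjusted p = 7.4e-05), 1.17 for Fnip1 (adjusted p = 9.5e-05), 0.94 for Fnip2 (adjusted p = 0.00119) and 1.09 for Sesn1 (adjusted p = 0.000381), and these calls held in all 23 alternative limma settings. In MOER oil Flcn, Fnip1 and Fnip2 were lower than in wild type oil by 0.49, 0.38 and 0.58 (adjusted p = 0.0222, 0.039 and 0.0132). These 3 oil calls were lost without any 1 wild type or MOER oil array (adjusted p up to 0.18, 0.245 and 0.113), and that of Fnip1 without any 1 wild type PPT or ERKO PPT array too. The MOER oil arrays were those with pancreatic acinar markers, whose part was not tested.

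In ERKO livers 2 regulators fell and 0 rose, with a list median of -0.11. Flcn fell from 278 and 233 to 188 and 181 (-0.43, adjusted p = 0.0185) and Fnip2 from 150 and 128 to 96.8 and 83.5 (-0.54, adjusted p = 0.00715). The Flcn call was lost without either ERKO PPT array (adjusted p up to 0.117) and that of Fnip2 without the second (adjusted p = 0.0781). Sesn1 gave 360 and 308 under oil and 320 and 308 after PPT, a difference of -0.08 (adjusted p = 0.647). Its response in wild type was lower than in ERKO by 0.98 ± 0.149 (adjusted p = 0.000839).

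**Figure D4:**
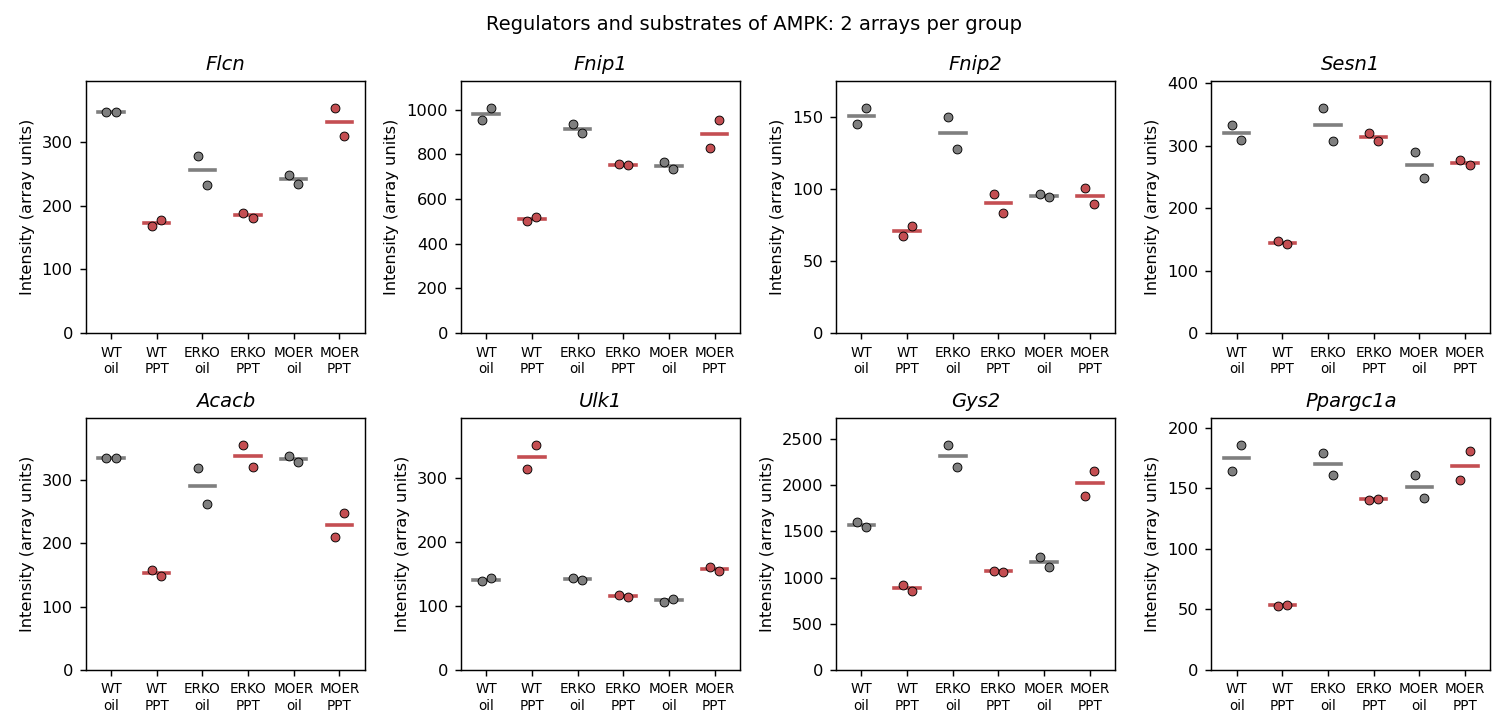
Deposited intensity (linear array units, axes from 0) of 4 regulators and 4 substrates of AMPK in the 6 groups; points are the 2 arrays of a group, lines their mean, grey for oil and red for PPT. Flcn is lower after PPT in wild type and ERKO and higher in MOER, Sesn1 is lowest in wild type PPT (143 and 147), and Gys2 is higher after PPT in MOER alone of the 3 genotypes.

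Substrates of AMPK, 25 of 27 tested, gave 1 rise and 10 falls in wild type (median -0.20), 2 rises and 4 falls in MOER (0.02) and 7 falls in ERKO (-0.23). Srebf1, the transcription factor that drives fatty acid synthesis genes, fell in each genotype: from 415 and 408 to 146 and 151 for wild type, from 534 and 522 to 269 and 231 for MOER, and from 503 and 406 to 245 and 212 for ERKO. Its log2 differences were -1.38 ± 0.12, -1.04 ± 0.12 and -0.94 ± 0.12 (adjusted p = 8.23e-06, 0.000403 and 0.000554). Acaca, the acetyl-CoA carboxylase of fatty acid synthesis, fell by 0.59 in wild type (adjusted p = 0.000666), by 0.38 in MOER (adjusted p = 0.0454) and by 0.46 in ERKO (adjusted p = 0.00772). The MOER call of Acaca was lost without any 1 array other than the ERKO oil arrays (up to 0.332), and the ERKO call without the second ERKO PPT array (0.063).

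Acacb, the mitochondrial acetyl-CoA carboxylase whose product blocks fat oxidation, gave 336 and 335 in wild type oil arrays and 158 and 148 after PPT. MOER arrays gave 338 and 330 under oil and 210 and 248 after PPT, and ERKO arrays 320 and 263 under oil and 356 and 320 after PPT. It fell by 1.06 in wild type (adjusted p = 4.44e-05) and by 0.52 in MOER (adjusted p = 0.0286), and the ERKO difference was 0.21 (adjusted p = 0.245). The response was lower than in ERKO by 1.27 ± 0.163 in wild type (adjusted p = 0.000292) and by 0.73 ± 0.163 in MOER (adjusted p = 0.0173). ERKO PPT arrays carried skeletal muscle markers and MOER oil arrays pancreatic acinar markers, whose part was not tested. The MOER fall was lost without any 1 wild type array, either MOER oil array or MOER PPT array 1 (adjusted p up to 0.251), and the MOER minus ERKO call without ERKO PPT array 1, either MOER oil array or MOER PPT array 1 (up to 0.0708).

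Ulk1, the kinase that starts autophagy, rose from 139 and 143 to 315 and 353 in wild type (1.15 ± 0.0875, adjusted p = 3.04e-06) and from 106 and 111 to 161 and 154 in MOER (0.48 ± 0.0875, adjusted p = 0.00995). The MOER call was lost without any 1 MOER array (adjusted p up to 0.105). In ERKO Ulk1 gave 144 and 140 under oil and 117 and 113 after PPT. Its response was higher than in ERKO by 1.42 in wild type (adjusted p = 1.8e-05) and by 0.75 in MOER (adjusted p = 0.00367), and both differences held without any 1 array. Whether the muscle markers of ERKO PPT or the acinar markers of MOER oil had a part was not tested.

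Gys2, the liver glycogen synthase, moved in opposite directions between genotypes. It rose from 1220 and 1111 to 1889 and 2159 in MOER (0.79 ± 0.102, adjusted p = 0.000939). In ERKO it fell from 2441 and 2195 to 1070 and 1065 (-1.10 ± 0.102, adjusted p = 5.87e-05), and in wild type from 1600 and 1546 to 920 and 852 (-0.82 ± 0.102, adjusted p = 0.000116). The MOER response was higher than that of ERKO by 1.89 (adjusted p = 1.4e-05). Pancreatic acinar markers of the MOER oil arrays and skeletal muscle markers of the ERKO PPT arrays had a part here that was not tested. Under oil Gys2 was already lower in MOER than in wild type by 0.43 and higher in ERKO by 0.55 (adjusted p = 0.036 and 0.0135). Both oil calls were lost without either wild type oil array (up to 0.206 and 0.124), and that of MOER also without either array of MOER oil, wild type PPT or ERKO PPT (up to 0.257).

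Ppargc1a, a coactivator of mitochondrial and fasting genes, fell in wild type from 165 and 186 to 52.7 and 53.8, below the 40th percentiles of those arrays (57.8 and 54.0). The fall was called (adjusted p = 2.06e-06), but its size depends on the 16 added and is not given. Mlxipl, the carbohydrate-responsive factor ChREBP, fell in wild type from 624 and 587 to 262 and 256 (-1.17 ± 0.0925, adjusted p = 3.94e-06). Neither was called in MOER or ERKO, and the wild type response was lower than that of ERKO for Ppargc1a (adjusted p = 0.000207) and, by 0.94, for Mlxipl (adjusted p = 0.000493). Also called were Cry1, a clock repressor, lower in MOER (-0.57, adjusted p = 0.0183) and in ERKO (-0.39, adjusted p = 0.0417), and Hnf4a, a hepatocyte transcription factor, in ERKO (-0.44, adjusted p = 0.00747). The MOER call of Cry1 was lost without MOER oil array 1 or either MOER PPT array (up to 0.185), its ERKO call in 9 of the 12 fits that left out 1 array (up to 0.151), and that of Hnf4a without the second ERKO PPT array (0.0637).

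The number of substrates called depended on single arrays outside wild type. In MOER 1 rose and 1 or 2 fell when any 1 MOER array was left out. In ERKO more fell without the second ERKO oil array and fewer without the second ERKO PPT array. Calls over all probe sets also rose in the former fit and dropped in the latter. Across all wild type substrate counts with 1 array left out, 10 or 11 fell.

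Genes of adenylate handling were tested for 7 of 8. In wild type Ak3, a mitochondrial adenylate kinase, fell from 2966 and 3054 to 1384 and 1427 (-1.09 ± 0.0867, adjusted p = 4.2e-06). In MOER 0 of 7 were called by limma, with 1 at an unadjusted p under 0.05. In ERKO 2 rose and 1 fell, and more fell without the second ERKO oil array, where calls over all probe sets rose too. Ampd1, the muscle AMP deaminase, rose from 56.5 and 56.5 to 168 and 148 (1.26, adjusted p = 8.77e-05) and Ak1, a cytosolic adenylate kinase abundant in muscle, from 51.4 and 69.0 to 144 and 121 (0.97, adjusted p = 0.000984). These are the arrays in which skeletal muscle markers summed to 10770 and 10775, and the part of those markers in Ampd1 and Ak1 was not tested. Each gene lay below the 40th percentile on 1 ERKO oil array, so these sizes depend on the 16 added. Ak4, a mitochondrial adenylate kinase, fell from 492 and 404 to 241 and 215 (-0.92, adjusted p = 0.000402).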

How the data were processed

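Liver RNA of 12 pools was measured on Affymetrix Mouse Gene 1.0 ST arrays. The authors deposited 1 linear intensity per probe set and array. For probe summary and array normalisation the method was not given in the sources used here. Changes were called with Cyber-T at a minimum of 2-fold, per the labels' protocols. Groups come from the labels. The 28815 probe sets were named from the platform's annotation, of which 21780 had 1 symbol, 1605 several and 5430 none, and the brightest probe set on average stood for a gene. Values were taken as log2(intensity + 16) without further normalisation, and tests were run on the 19119 probe sets that exceeded their array's 40th percentile at least 2 times. One limma fit (3.58.1, R 4.3.3; lmFit and eBayes, no trend) of 6 group means gave 9 two-sided contrasts and an F-test, with 6 residual and 10.47 moderated degrees of freedom. Depth does not apply to arrays, and their number limits the precision. The fit was tested on simulated data. Promoter windows are from RefSeq (GRCm38.p6).

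The rule for named genes was all members, up to 4 called genes of each pathway list and comparison by smallest p, always Acaca, Acacb and Srebf1, and for each called member the 3 genes most correlated with it. The members and lists were chosen with earlier results of these data known. Some listed genes are not reported here. A Cyber-T-style test, other offsets, filters, scalings, variance models, a replicate block and leaving out each array were tried as alternatives.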

Additional observations from a re-analysis of the deposited data

Results flagged for a closer look

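For the members, 5 differences between genotypes in the response to PPT passed the test of the difference itself. The Prkaa1 response was higher in wild type than in ERKO by 0.849 and than in MOER by 0.543 on the log2 scale. The Prkag2 response was higher in wild type than in ERKO by 0.857 and than in MOER by 0.437, and higher in MOER than in ERKO by 0.419. The wild type minus ERKO pair held in all 23 alternative limma settings, and the other 3 each depended on single arrays. None of these settings addressed the skeletal muscle markers of the ERKO PPT arrays, whose part was not tested. No group was large enough to look for outlying arrays.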

How the results depend on the processing

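No member or listed gene that was called reversed its direction under any of 23 alternative limma settings, 12 of which left out 1 array each. Of 11 member calls in the pairwise comparisons, 5 held throughout, namely Prkaa1, Prkaa2 and Prkag2 in wild type and Prkaa1 and Prkag2 in wild type minus ERKO. Of 108 calls of listed genes (a check added after seeing the data), 55 held throughout. The Cyber-T-style test is given apart. Calls over all probe sets also changed when 1 array was left out, so the ranges that follow do not describe the members alone. Leaving out 1 array gave 3 to 5 member calls in wild type, 0 to 1 in MOER, 0 to 3 in ERKO, 2 to 4 in wild type minus ERKO, 0 to 2 in MOER minus ERKO, 0 to 3 in wild type minus MOER, and under oil 0 to 5 in ERKO minus wild type, 0 to 2 in MOER minus wild type and 0 to 2 in MOER minus ERKO. The F-test gave 4 to 6.

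Adding 64 in place of 16, a 60th percentile filter and a trended variance prior each gave 1 call in MOER and, under oil, 1 in ERKO minus wild type and 1 in MOER minus wild type; the trended prior also gave 1 in MOER minus ERKO under oil. Quantile normalisation gave 1 in MOER, 4 in wild type minus ERKO, 2 in MOER minus ERKO, and 1 each in MOER minus wild type and MOER minus ERKO under oil. Median centring gave 2 in MOER minus wild type under oil. Array weights gave 1 in MOER, 0 in ERKO, 0 in MOER minus ERKO and 2 in MOER minus wild type under oil. No filter gave 0 in MOER minus ERKO and 0 in wild type minus MOER. Fitting only the groups compared gave 0 in ERKO and 0 in MOER minus ERKO. In each of these limma settings, calls over all probe sets changed in the same direction as the member count. With array weights they went from 3430 to 880 in ERKO and from 1082 to 3980 in MOER minus wild type under oil. With quantile normalisation they went from 890 to 1470 in MOER. The changes are thus not particular to the members, and their cause was not tested. A Cyber-T-style test at p under 1e-04 and 2-fold gave 0 in wild type and 0 in ERKO, where 1129 and 290 of 19119 probe sets passed. In wild type the 4 genes that limma called had p under 1e-04, and the 2-fold threshold alone removed them. In ERKO the 2 genes that limma called did not reach 1e-04 in that test. Their Cyber-T-style p-values were 0.000939 for Prkaa2 and 0.0661 for Prkag2.

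With the replicate number as a block, 0 were called in MOER minus ERKO (Prkag2, adjusted p = 0.0552) and 1 in ERKO minus wild type under oil. Deviations of same-numbered arrays correlated at over 0.1 in 5 of 15 pairs of groups (range -0.147 to 0.377), with the 3 pairs of oil groups at 0.276 to 0.377. The labels do not say that a number marks a run, and whether the numbers pair the arrays was not settled. With 2 arrays a group and 6 residual degrees of freedom, a missed threshold does not show that a transcript stayed level, and signals near the 40th percentile limit Camkk2, Prkab2 and Prkag3.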
